A study of Homo sapiens with 12 samples.

Results

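Expression of 7 factors known for sustaining blood stem cells, MEIS1, HHEX, MLLT3, MSI2, MECOM, PRDM16 and HLF, was followed from pluripotent cells to blood progenitors in human embryonic stem cells (hESCs) of the H1 line. The members are the 7 rows with these symbols among the 56266 Ensembl genes of the RNA-Seq tables, and every factor had 1 row. The 10 libraries fell into 5 groups of 2, made from wild type (WT) H1 and from H1 cells in which both copies of GATA2 were disrupted (GATA2-/-). The groups were undifferentiated GATA2-/- hESCs, WT and GATA2-/- hemogenic endothelium (HEs, sorted as CD34+CD31+CD43- cells at day 8), and WT and GATA2-/- hematopoietic progenitor cells (HPCs, sorted as CD34+CD43+ cells at day 9). All HEs and HPCs came from co-culture with OP9, a mouse bone marrow stromal line, and the human surface antigen TRA-1-85 was also used in the sort. The WT hESCs were not analysed here. The GATA2-/- line was 1 clone in which a PGK-neo drug resistance cassette was placed into the coding part of GATA2, so an effect of the genotype and a property of that clone cannot be told apart. Stage, day and sort gate also cannot be told apart. No source says that the 2 libraries of a group came from separate cultures, so the tests measure the spread between libraries, which may be technical.

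Blood stem cells keep themselves through a small network of transcription factors, chromatin readers and RNA-binding proteins. In the embryo these cells arise from hemogenic endothelium, a specialised endothelium that turns off its vascular program as it releases blood cells. MEIS1 is a homeodomain protein that binds DNA with PBX and HOX partners. HHEX is a homeodomain factor of early endothelium and blood. MLLT3 (AF9) reads acylated histones and brings elongation factors and the histone methyltransferase DOT1L to active genes. MSI2 binds mRNAs and controls their translation. MECOM (EVI1) and PRDM16 are related zinc finger proteins that work with CtBP corepressors. HLF is a leucine zipper factor of the PAR group that marks emerging and adult stem cells.

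Values are TPM (transcript levels scaled for gene length and library total), which scale every library to nearly the same total of 998299 to 999106. TPM keeps no sequencing depth, so the depth is unknown and the values carry no counting error. A TPM of 1 was reached by 16004 to 17335 genes in a library. Endothelial markers were high in HEs, with 12 marker genes summing to between 4499 and 5449 TPM, against 1078 to 1439 in HPCs. The sum of 10 pan-hematopoietic markers was 1505 to 2132 in HPCs and 104 to 319 in HEs. CD45 (PTPRC), the usual blood cell marker, was at most 3.09 TPM in every library. The 12 erythroid markers, globins among them, summed to 5049 and 14391 in the WT HPC libraries and to 7867 and 16386 in the GATA2-/- HPC libraries, replicate 2 being higher in both. The file headers of all replicate 2 HE and HPC libraries share a tag that those of replicate 1 lack, and its meaning is not stated. GATA2 itself had a TPM of 2.05 and 5.54 in GATA2-/- hESCs, 107 and 78.0 in WT HEs, 111 and 94.1 in GATA2-/- HEs, 290.1 and 204 in WT HPCs and 112 and 83.8 in GATA2-/- HPCs. The row counts any transcript of the locus, including an aberrant one, so it does not check the labels.

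On GRCh37, the build equal to hg19, MEIS1 (ENSG00000143995) lies at chr2:66660584-66801001 and HHEX (ENSG00000152804) at chr10:94449712-94455404, both on the plus strand. MLLT3 (ENSG00000171843) lies at chr9:20341667-20622498 and MECOM (ENSG00000085276) at chr3:168801287-169381563, both on the minus strand. PRDM16 (ENSG00000142611) lies at chr1:2985732-3355185 and HLF (ENSG00000108924) at chr17:53342321-53402548, both on the plus strand. MSI2 (ENSG00000153944) lies at chr17:55333212-55762050 on the plus strand. The kit did not mark strand. Reads of MEIS1 thus cannot be told apart from those of the overlapping antisense genes MEIS1-AS2, listed at 0 to 2.25 TPM, and MEIS1-AS3, listed at 0 in every library, and MSI2 also overlaps an unnamed gene on the opposite strand. The MECOM row joins 20 annotated transcripts, so its long and short forms were not separated.

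The start sites of 3 of the factors are shown as examples. MEIS1 rose and HHEX fell between HEs and HPCs, and MLLT3 had the largest difference between genotypes of the tested factors. MECOM and PRDM16, which fell by more than HHEX on the log2 scale used below, are not shown. The lines give the 250 bases before the RefSeq start site on GRCh38.p14, 5′ to 3′ on the strand of the gene. They span chr2:66434875-66435124 for MEIS1 (plus strand), chr10:92689705-92689954 for HHEX (plus strand) and chr9:20622500-20622749 for MLLT3 (minus strand). Capitals mark the letters GATAA (GATA factors), GGAAGT (ETS factors) or TGTGGT (RUNX factors) on either strand.
MEIS1: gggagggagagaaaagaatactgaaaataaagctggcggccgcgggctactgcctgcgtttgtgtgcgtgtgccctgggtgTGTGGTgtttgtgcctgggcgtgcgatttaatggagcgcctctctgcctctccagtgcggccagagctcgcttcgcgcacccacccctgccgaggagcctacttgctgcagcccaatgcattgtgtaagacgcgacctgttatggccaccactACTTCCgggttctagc
HHEX: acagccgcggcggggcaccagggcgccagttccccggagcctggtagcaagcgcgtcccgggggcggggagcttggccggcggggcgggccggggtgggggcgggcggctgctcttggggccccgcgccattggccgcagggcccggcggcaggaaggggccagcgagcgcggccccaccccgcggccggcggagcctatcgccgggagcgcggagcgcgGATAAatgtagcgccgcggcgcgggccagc
MLLT3: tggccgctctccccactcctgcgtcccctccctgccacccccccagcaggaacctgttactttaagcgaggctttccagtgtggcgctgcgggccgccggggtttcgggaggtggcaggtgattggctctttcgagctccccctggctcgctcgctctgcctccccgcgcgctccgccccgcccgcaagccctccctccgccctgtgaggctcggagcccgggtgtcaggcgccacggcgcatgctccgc
The MEIS1 window held 1 match to TGTGGT and 1 to ACTTCC, the reverse complement of GGAAGT. The HHEX window held 1 match to GATAA close to the start, and the MLLT3 window held none of the 3 sets of letters. Such short matches are frequent. Of 35116 windows of the same length over all genes, 20.4% held GATAA or its reverse complement TTATC, 19.5% held GGAAGT or ACTTCC and 11% held TGTGGT or ACCACA. Of the 7 factors, 6 had an entry in the RefSeq table, with 10 windows in all, of which 3 held GATAA or TTATC and 4 held no match. The windows with GATAA or TTATC were those of HHEX and MECOM. PRDM16 was not among the entries. A match is a description of letters and not of a bound site.

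Between HEs and HPCs the factors split into those that rose and those that fell. MEIS1, MLLT3 and MSI2 were higher in HPCs, by 0.85, 0.78 and 0.66 on the log2(TPM + 1) scale averaged over both genotypes. HHEX, MECOM and PRDM16 were lower, by 1.06, 1.73 and 1.29 on that scale. HLF was near the lower limit of the data throughout. All 6 factors that reached a TPM of 1 in at least 2 libraries passed the limma test, where 20.4% of the 21543 genes tested passed, 8.52% higher and 11.9% lower. PRDM16 reached that level only in HE libraries, so its pass is no separate support for its fall. The median difference of the 6 factors was -0.20 against 0.01 over all tested genes, but they split between both directions and none lay near it. This comparison asks which of the factors change as endothelium gives way to blood progenitors.

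MEIS1 was essentially off in hESCs and high in both later stages. Its TPM was 0 and 0.07 in GATA2-/- hESCs, 35.3 and 32.3 in WT HEs, 30.4 and 29.5 in GATA2-/- HEs, 53.8 and 57.1 in WT HPCs and 59.5 and 62.7 in GATA2-/- HPCs. Every HPC library lay above every HE library. The rise from HEs to HPCs was 0.85 on the log2 scale (standard error 0.13, adjusted p = 0.00184, limma), with a smallest possible exact permutation p of 0.0286 over the 4 HPC and 4 HE libraries. Within genotypes the rise was 0.70 (standard error 0.18, adjusted p = 0.0469) in WT and 1.01 (adjusted p = 0.0081) in GATA2-/- cells. The WT call was lost when any of the 4 WT libraries was left out (adjusted p = 0.107 to 0.208), and also without any of the 4 GATA2-/- HE or HPC libraries (adjusted p = 0.0588 to 0.071). The GATA2-/- call was lost without the GATA2-/- HE replicate 2 library (adjusted p = 0.0561). MEIS1 was thus far higher in both stages than in hESCs, with differences of 4.90 in GATA2-/- HEs (adjusted p = 9.34e-07) and 5.91 in GATA2-/- HPCs (adjusted p = 6.6e-07).

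MLLT3 was lowest in hESCs and, within each genotype, highest in HPCs. Its TPM was 2.74 and 5 in GATA2-/- hESCs, 12.7 and 14.8 in GATA2-/- HEs and 27.8 and 21.4 in GATA2-/- HPCs. In WT cells it was 33.4 and 27.4 in HEs and 52.3 and 53.1 in HPCs. The GATA2-/- HPC libraries lay below or between the WT HE libraries. The 4 HPC and 4 HE libraries thus overlapped (exact permutation p = 0.143). Within either genotype they did not, but with 2 libraries a side, and the share of all genes so separated was not counted. The rise from HEs to HPCs was 0.78 in WT (standard error 0.27, adjusted p = 0.118) and 0.79 in GATA2-/- cells (standard error 0.27, adjusted p = 0.0981), and neither passed alone. The average over genotypes, 0.78 (standard error 0.19, adjusted p = 0.0196, limma), passed, and this call was lost on leaving out WT HE replicate 2 (adjusted p = 0.075), GATA2-/- HE replicate 1 (0.0664), WT HPC replicate 1 (0.0524) or 2 (0.0571) or GATA2-/- HPC replicate 1 (0.0649). Against GATA2-/- hESCs, MLLT3 rose by 1.63 in GATA2-/- HEs (adjusted p = 0.0021) and by 2.42 in GATA2-/- HPCs (adjusted p = 0.00025).

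MSI2 was the most abundant of the 7 factors in the GATA2-/- hESCs. Its TPM was 27.4 and 38.3 in GATA2-/- hESCs, 20.5 and 23.4 in WT HEs, 21.8 and 19.3 in GATA2-/- HEs, 29.96 and 31.5 in WT HPCs and 42.4 and 34.2 in GATA2-/- HPCs. The lowest group was the HEs, with the hESC and HPC libraries overlapping each other. HPCs exceeded HEs by 0.66 on average (standard error 0.15, adjusted p = 0.0157, limma), with no overlap between the 4 and 4 libraries. Without WT HE replicate 1, GATA2-/- HE replicate 2 or GATA2-/- HPC replicate 1 the adjusted p was 0.0577, 0.0564 and 0.0515. The difference was 0.86 in GATA2-/- cells (adjusted p = 0.0341) and 0.47 in WT cells (adjusted p = 0.253). The GATA2-/- call was lost without any of the 4 GATA2-/- HE and HPC libraries (adjusted p = 0.0632 to 0.164) and without either WT HE library (0.0528 and 0.0534). GATA2-/- HEs were 0.63 below GATA2-/- hESCs without passing (adjusted p = 0.0574). It passed without hESC replicate 1 (0.0352), under quantile normalization (0.0479) and without mitochondrial genes (0.0451).

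HHEX was the most abundant of the 7 factors in HEs. Its TPM was 0.2 and 0.35 in GATA2-/- hESCs, 114 and 116 in WT HEs, 137 and 132 in GATA2-/- HEs, 66.0 and 46.7 in WT HPCs and 70.3 and 56.3 in GATA2-/- HPCs. It was nearly absent from hESCs, and every HPC library lay below every HE library. The fall from HEs to HPCs was nearly the same size in both genotypes, with -1.04 in WT (standard error 0.21, adjusted p = 0.0156, limma) and -1.08 in GATA2-/- cells (standard error 0.21, adjusted p = 0.0111). The WT call was lost without either WT HE library or WT HPC replicate 2 (adjusted p = 0.0851 to 0.0974) and the GATA2-/- call without either GATA2-/- HE library or GATA2-/- HPC replicate 2 (0.065 to 0.0721). Averaged over genotypes the fall was -1.06 (standard error 0.15, adjusted p = 0.00117) and stayed past the threshold without any single library (highest adjusted p = 0.0081). Against GATA2-/- hESCs, HHEX rose by 6.73 in GATA2-/- HEs (adjusted p = 4.02e-07) and by 5.65 in GATA2-/- HPCs (adjusted p = 1.2e-06).

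MECOM appeared with the endothelial stage and was low in HPCs. It was listed at 0 in both GATA2-/- hESC libraries, at 13.6 and 18.7 TPM in WT HEs, 6.96 and 16.8 in GATA2-/- HEs, 4.66 and 1.71 in WT HPCs and 3.59 and 3.74 in GATA2-/- HPCs. Every HPC library was below every HE library, although the 2 GATA2-/- HE libraries differed more in TPM than the 2 libraries of any other group. The mean fell from 16.2 to 3.18 TPM in WT (difference -2.11 on the log2(TPM + 1) scale, standard error 0.48, adjusted p = 0.0265, limma) and from 11.9 to 3.67 TPM in GATA2-/- cells (-1.35, adjusted p = 0.11). The WT call was lost without either hESC library (adjusted p = 0.0721 and 0.0724), either WT HE library (0.0889 and 0.16) or WT HPC replicate 2 (0.149). Averaged over genotypes the fall was -1.73 (standard error 0.34, adjusted p = 0.00715), and it passed without any single library. Both GATA2-/- HEs (adjusted p = 0.0007) and GATA2-/- HPCs (adjusted p = 0.00826) were above the hESCs in which MECOM was listed at 0. The second call was lost without hESC replicate 1 (0.0642) or 2 (0.0599).

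PRDM16, the relative of MECOM, was likewise highest in HEs, at a lower level. Its TPM was 0.3 and 0.28 in GATA2-/- hESCs, 2.5 and 2.02 in WT HEs, 1.04 and 1.8 in GATA2-/- HEs, 0.16 and 0 in WT HPCs and 0.15 and 0.26 in GATA2-/- HPCs. HPCs and hESCs were both below every HE library. Only HE libraries reached a TPM of 1, so PRDM16 entered the test through the group where it was high. Its calls are thus no separate support for a higher level in HEs. The fall from HEs to HPCs was -1.59 in WT (standard error 0.34, adjusted p = 0.0191, limma), -0.99 in GATA2-/- cells (adjusted p = 0.0954) and -1.29 on average (standard error 0.24, adjusted p = 0.00515). At these levels the added 1 TPM understates the change. The WT call was lost without any of the 4 WT libraries (adjusted p = 0.0517 to 0.0968), and the averaged call passed without any single library. GATA2-/- HEs were 0.89 above hESCs without passing (adjusted p = 0.0797), and passed under quantile normalization (0.0438) and without the trend in eBayes (0.0273).

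HLF gave no reliable signal. It was listed at 0.82 and 0 TPM in GATA2-/- hESCs, 0 and 0 in WT HEs, 0 and 0.06 in GATA2-/- HEs, 1.24 and 0 in WT HPCs and 0.5 and 0.19 in GATA2-/- HPCs. Only 1 library of 10 reached a TPM of 1, so HLF did not enter the limma test, and its exact permutation p between the 4 HPC and 4 HE libraries was 0.143. With depth unknown, a listed 0 does not show absence.

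**Figure D1:**
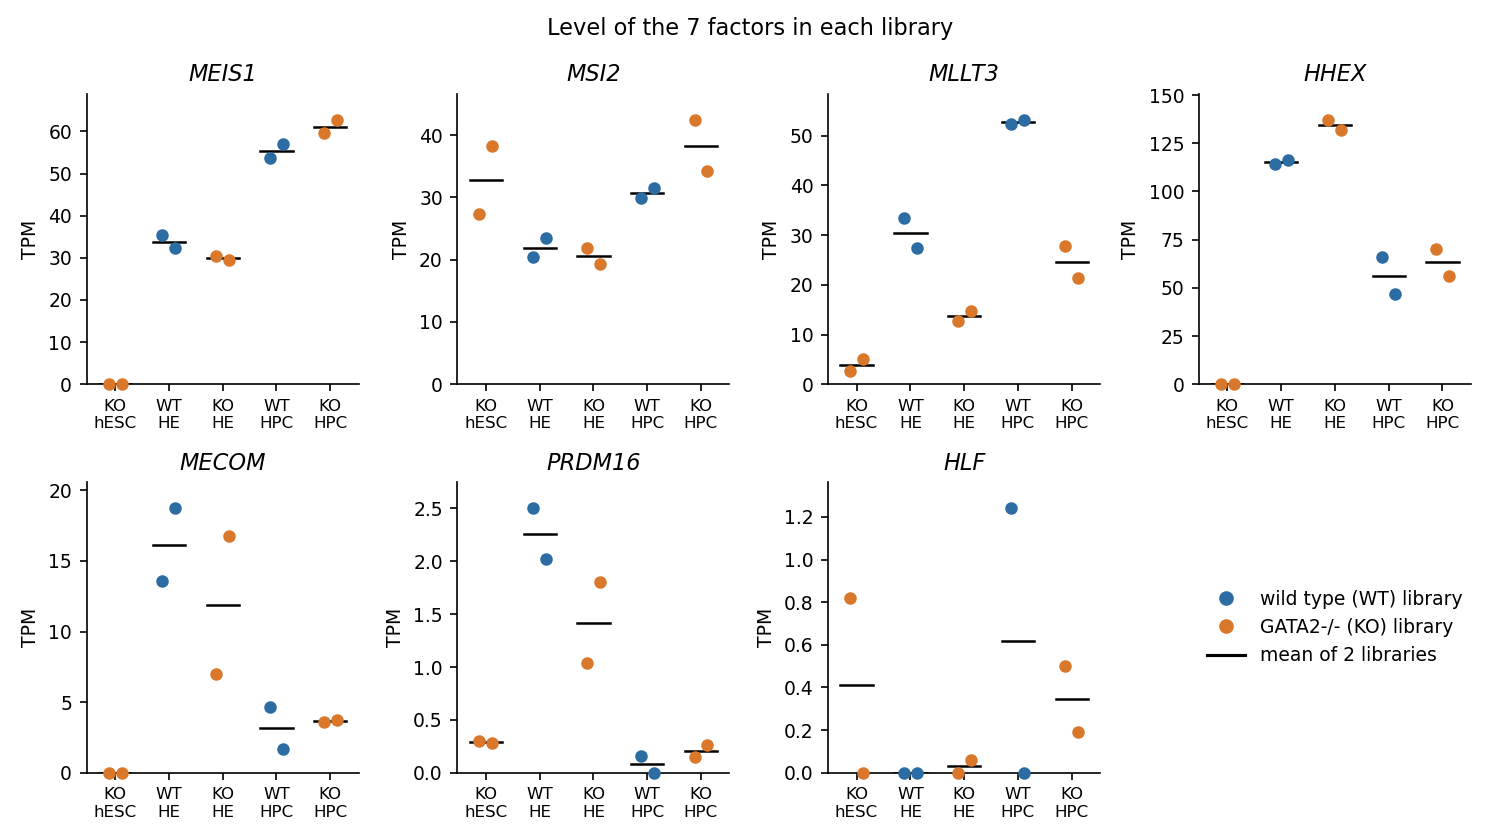
Level in TPM (y axis, linear from 0, own scale for every factor) of the 7 factors in each of the 10 libraries, by group (x axis). Points are libraries, blue for WT and orange for GATA2-/-, and black bars are means of 2 libraries. MEIS1 and MSI2 lie higher in all 4 HPC than in all 4 HE libraries, HHEX, MECOM and PRDM16 lie lower, and the GATA2-/- points of MLLT3 lie below the WT points in both stages.

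Of the 7 factors, 5 separated all 4 HPC from all 4 HE libraries (exact permutation p = 0.0286, 2-sided, the smallest that 70 arrangements allow). MEIS1 and MSI2 were above, as were 9.48% of all tested genes, and HHEX, MECOM and PRDM16 were below, as were 13.5%. PRDM16 was among the tested genes only through its HE values. Within genotypes, 4 of the 6 tested factors passed in WT (9.91% of all tested genes passed) and 3 in GATA2-/- cells (12.7%). In bulk samples such as these, fewer cells of a type and less RNA per cell cannot be told apart. The same comparison moved the cell type markers. All 12 endothelial markers were lower in HPCs, with a median difference of -2.55, and 10 of 12 erythroid markers were higher, with a median of 6.38. Of 10 markers of mesenchymal and stromal cells, 4 were lower and 2 higher in HPCs, and they summed to 541 to 831 TPM in HEs and 139 to 299 TPM in HPCs. The part of these marker changes in the differences of the factors was not tested.

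**Figure D2:**
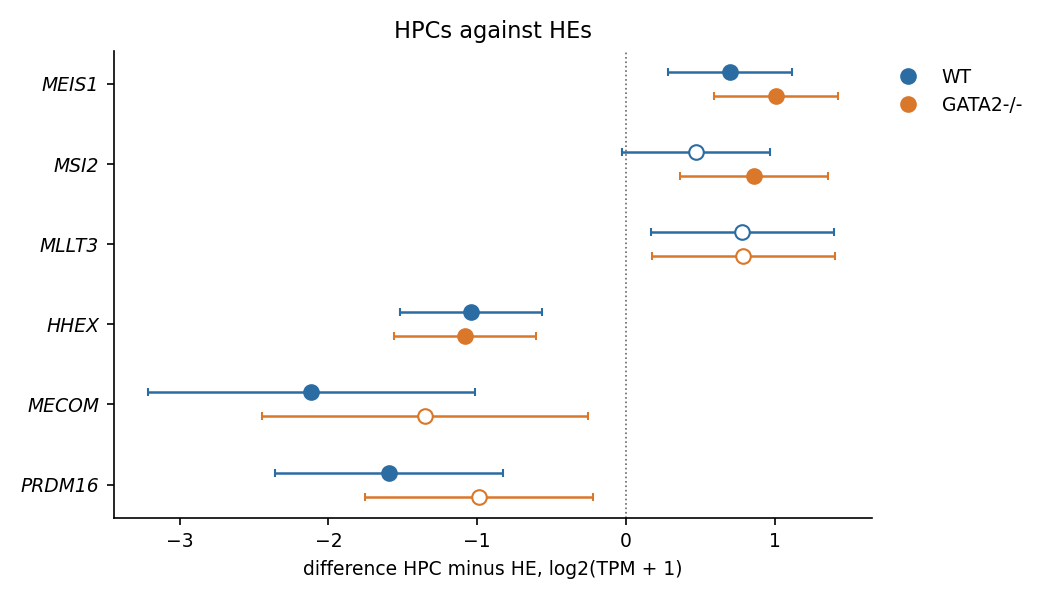
Difference between HPCs and HEs in log2(TPM + 1) (x axis) for the 6 tested factors (y axis), in WT (blue) and GATA2-/- cells (orange). Bars are 95% intervals from limma, and filled points passed an adjusted p of 0.05. MEIS1, MSI2 and MLLT3 lie right of 0 and HHEX, MECOM and PRDM16 left of 0 in both genotypes.

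None of the 6 tested factors differed past the threshold between GATA2-/- and WT cells. This held for HEs (limma called 4 of 21543 genes, 0.0186%), for HPCs (13 genes, 0.0603%) and for both stages averaged (5 genes, 0.0232%). With so few calls over all genes, a factor without a call is not shown to be unchanged. At an unadjusted p under 0.05, 1 of the 6 factors, MLLT3, was below WT in each of the 3 comparisons, against 4.85%, 8.94% and 8.04% of all tested genes in either direction. The intervals below are not adjusted for the number of genes.

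MLLT3 had the largest difference. The GATA2-/- HE libraries had 12.7 and 14.8 TPM against 33.4 and 27.4 in WT, and the GATA2-/- HPC libraries 27.8 and 21.4 TPM against 52.3 and 53.1. GATA2-/- was below WT in all 4 pairs of libraries in both stages, as it was for 2.93% of all tested genes. The mean level in WT was 2.21 times that in GATA2-/- HEs and 2.14 times that in GATA2-/- HPCs. On the log2 scale the difference was -1.09 in HEs (standard error 0.27, unadjusted p = 0.0032, adjusted p = 0.578), -1.08 in HPCs (standard error 0.27, unadjusted p = 0.0033, adjusted p = 0.277) and -1.08 on average (95% interval -1.52 to -0.65, unadjusted p = 0.000341, adjusted p = 0.171, limma). Within replicate numbers it was -1.33 and -0.85 in HEs and -0.89 and -1.27 in HPCs. It ranked 41 of 21543 genes by p. Permuting genotypes within stages gave an exact p of 0.0556, the smallest that 36 arrangements allow. The adjusted p of the average was 0.162 to 0.447 over the alternatives, so the difference failed the correction under each of them. The difference between the stages' effects was 0.01 (standard error 0.38), so an unequal effect in HEs and HPCs was not detected.

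Other measures moved with the genotype in the same libraries. The pan-hematopoietic markers summed to 319 and 245 TPM in WT HEs and 177 and 104 in GATA2-/- HEs, and to 2132 and 2020 in WT HPCs and 1505 and 1883 in GATA2-/- HPCs, with 0 of the 10 markers passing (limma). PF4, a megakaryocyte marker, passed in HEs with -2.79 (adjusted p = 0.0249). Transcripts of the mitochondrial genome took 8.66% and 9.61% of TPM in WT HPCs and 15.1% and 14.8% in GATA2-/- HPCs, against 6.29% to 6.82% in all HEs. Rescaled without mitochondrial genes, the average MLLT3 difference was -1.04. The part of the hematopoietic markers in it was not tested.

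The other factors differed by less. MEIS1 was 0.17 lower in GATA2-/- HEs (95% interval -0.59 to 0.25) and 0.14 higher in GATA2-/- HPCs (-0.28 to 0.56), with no overlap between the genotypes in either stage. Of all tested genes, 16.5% lay wholly below WT in HEs and 19.7% wholly above WT in HPCs, and for MEIS1 the difference between the stages' effects, 0.31, did not pass (adjusted p = 0.924, limma). HHEX was 0.22 (-0.26 to 0.70) and 0.18 (-0.30 to 0.66) higher in GATA2-/- HEs and HPCs. MSI2 differed by -0.09 (-0.59 to 0.41) and 0.30 (-0.19 to 0.80). MECOM differed by -0.51 (-1.61 to 0.59) in HEs, where its GATA2-/- libraries spread most, and by 0.25 (-0.84 to 1.35) in HPCs. PRDM16 differed by -0.44 (-1.21 to 0.32) and 0.16 (-0.61 to 0.93). PRDM16 also lay wholly below WT in HEs and MSI2 wholly above WT in HPCs, as did 16.5% and 19.7% of all tested genes. HHEX lay wholly above WT in HEs, and the share of all genes doing so was not counted. No factor passed the test of a difference between the stages' genotype effects, nor did any of the 21543 genes (0%, limma), of which 5.95% had an unadjusted p under 0.05.

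**Figure D3:**
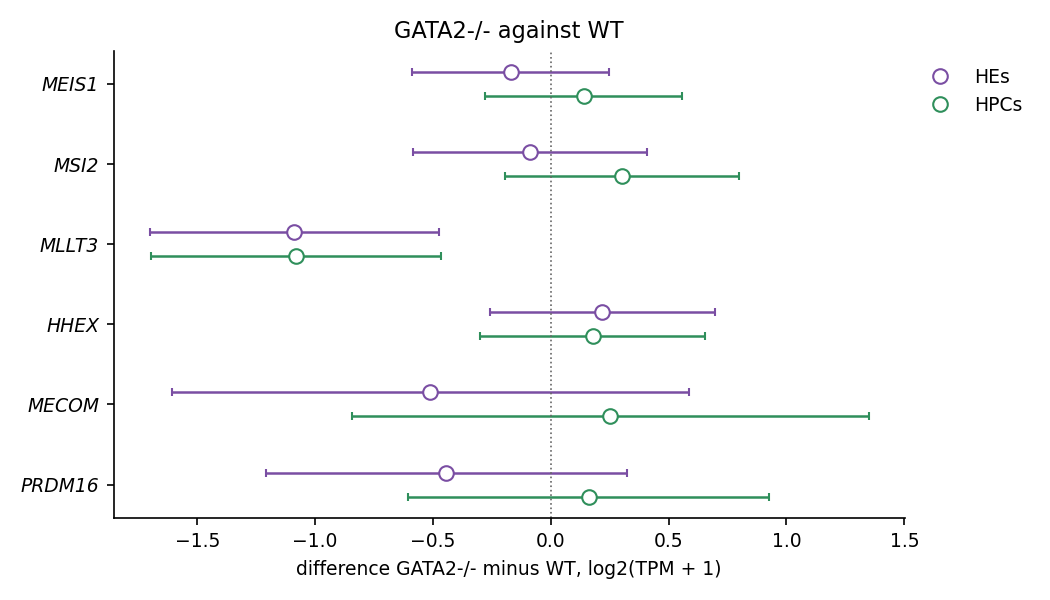
Difference between GATA2-/- and WT in log2(TPM + 1) (x axis) for the 6 tested factors (y axis), in HEs (purple) and HPCs (green). Bars are 95% intervals from limma, and open points did not pass an adjusted p of 0.05, which holds for all points. The intervals of MLLT3 lie below 0 in both stages, and those of the other factors include 0.

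Against GATA2-/- hESCs, 4 of the 6 tested factors were higher in GATA2-/- HEs, namely MEIS1, HHEX, MECOM and MLLT3, where 30% of tested genes passed, 13.9% upwards. The same 4 were higher in GATA2-/- HPCs, where 30.6% passed, 14.2% upwards. These comparisons share the hESC libraries. The median of the 6 factors was 2.60 in HEs and 2.32 in HPCs, against -0.02 and 0 over all tested genes. MSI2 and PRDM16 did not pass in either, and in HEs both passed under the alternatives given above.

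The partners of the factors did not move as a block between HEs and HPCs. Of all tested genes, 8.52% rose and 11.9% fell in this comparison, the shares to set beside each list count below. Of 10 tested genes of the MEIS1 partner and MLL complex list, 3 rose and 1 fell, with a median of 0.06. MLL (KMT2A), a histone methyltransferase upstream of MEIS1 and HOX genes, rose by 0.82 on average (adjusted p = 0.0122, limma). Its difference was 1.40 in GATA2-/- cells (adjusted p = 0.0081) and 0.24 in WT cells (0.655), and that between the genotypes did not pass (0.685). PSIP1 rose by 0.35 (0.0429) and PBX3 fell by 0.73 (0.0128). The PSIP1 call was lost without most single libraries (adjusted p up to 0.118) and the PBX3 call without WT HE replicate 2 (0.0529) or GATA2-/- HE replicate 2 (0.0505).

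Of 6 tested HOX genes, 3 fell from HEs to HPCs and none rose, with a median of -0.82. HOXA5, HOXA9 and HOXA10 reached a TPM of 1 only in HE libraries, so they entered the test through the group where they were high. The calls of HOXA9 and HOXA10 and the median are thus no separate support for a fall. HOXB2 (-0.50), HOXB4 (-0.08) and HOXA5 (-0.73) did not pass. HOXA9, a HOX partner of MEIS1 in stem cells, had a TPM of 12 and 6.64 in WT HEs and 5.22 and 5.3 in GATA2-/- HEs and was listed at 0 in all 4 HPC and both hESC libraries (adjusted p = 9.26e-05 between HPCs and HEs, limma). HOXA10 was at 2.29 to 4.21 TPM in HEs and at most 0.23 in HPCs. HOXB3 fell by 0.91 (adjusted p = 0.0103), and its call was lost with a pseudocount of 0.1 (0.0762). Against hESCs, HOXB2, HOXB3 and HOXB4 were higher in GATA2-/- HEs, by 5.28, 5.23 and 3.17, and in GATA2-/- HPCs, by 4.89, 4.60 and 3.05.

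In the list of MLLT3 elongation and DOT1L partners, 1 of 11 rose and 1 fell, with a median of 0.35. These counts were near the shares over all tested genes, 8.52% and 11.9%. ELL2, an elongation factor, was at 7.89 to 21.2 TPM in HEs and 34.4 to 66.2 TPM in HPCs, a rise of 1.86 (adjusted p = 0.00376, limma). CDK9, the kinase of the elongation machinery, fell by 0.63 (0.0283) and lost its call without several single libraries (adjusted p up to 0.0991). DOT1L had 26.9 to 78.8 TPM in HEs and 45.7 to 82.9 in HPCs, and did not pass. Among 3 relatives of HLF, with a median of 0.14, 1 passed. DBP rose by 1.12 (adjusted p = 0.0316), lost without several single libraries (up to 0.0972).

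Among 17 tested PRDM relatives and corepressors, 2 fell and none rose, with a median of -0.20. The count that fell was near the share over all tested genes, 11.9%. SKIL, a corepressor of the SKI family, was at 10.1 to 17.6 TPM in HEs and 4.77 to 6.31 in HPCs, a difference of -1.15 (adjusted p = 0.00324, limma). PRDM8 differed by -2.17 (adjusted p = 0.0199), lost without several single libraries (up to 0.0733). PRDM14, a pluripotency factor, had 51.9 and 26.1 TPM in hESCs and at most 0.9 elsewhere. Of 4 genes around MSI2, 2 fell and none rose, with a median of -0.43, and its paralog MSI1 went in the opposite direction to MSI2. MSI1 had 15.8 and 18.9 TPM in hESCs, 1.48 to 8.04 in HEs and at most 0.2 in HPCs, a difference of -2.06 between HPCs and HEs (adjusted p = 0.00131). It passed in GATA2-/- cells (-2.69, adjusted p = 0.00372, limma) but not in WT cells. NUMB, whose mRNA is a known target of Musashi proteins, differed by -0.74 (adjusted p = 0.00637). Among 4 TLE corepressors of HHEX, 1 fell and none rose, with a median of -0.82. TLE1 fell together with HHEX, with -1.36 (adjusted p = 0.00485).

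Of 24 tested other blood stem cell genes, 5 rose and 13 fell from HEs to HPCs, with a median of -1.20 against 0.01 over all tested genes. NFE2, a factor of megakaryocytes and red cells, rose most (2.13 to 36.2 TPM in HEs, 206 to 235 in HPCs), and the ligand ANGPT1 rose by 1.86. THY1 (CD90) fell, with 423 to 532 TPM in HEs and 16.2 to 53.2 in HPCs, and HOPX and CRHBP fell by 3.42 and 3.38 on the log2 scale. Many genes of this list are also endothelial, and the endothelial marker sum fell in the same comparison, as given above. Against hESCs, 18 of the 24 were higher in GATA2-/- HEs, among them CD34, which was itself a sorting marker, and ESAM, and 1 was lower. Of all tested genes, 13.9% were higher there.

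No gene of the 8 lists passed between genotypes in HEs, in HPCs or on average. MEIS2, the paralog of MEIS1, and CRHBP were singled out after their values were seen. MEIS2 had 41.0 and 31.6 TPM in WT HEs and 14.1 and 15.4 in GATA2-/- HEs, and 38.2 and 32.4 in WT HPCs and 17.5 and 26.8 in GATA2-/- HPCs, an average difference of -0.95 (standard error 0.19, adjusted p = 0.228, limma). CRHBP, a gene of early blood stem cells, had 106 and 158 TPM in WT HEs and 20.2 and 38.8 in GATA2-/- HEs (difference -2.17, standard error 0.65, adjusted p = 0.792). In HPCs CRHBP had 7.86 and 8.18 TPM in WT and 7.08 and 0.85 in GATA2-/- cells, a separation with little gap. For both genes GATA2-/- lay below WT in every pair of both stages, as for 2.93% of all tested genes. The differences failed the correction.

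The genes most like each factor over the 10 libraries were found by Pearson's r of log2(TPM + 1) among 11922 genes whose TPM averaged 5 or more. The libraries differ by stage and by genotype, and the part of each in r was not tested. The value of r is given without a test. HHEX was closest to ENDOD1, TIE1 (an endothelial receptor kinase) and a gene known only by a clone name (r = 0.997 each). MEIS1 was closest to RAB32, KLHL6 and TET2 (r = 0.996, 0.996 and 0.995), of which TET2 is a DNA demethylase of blood stem cells. MECOM was closest to SNX18, TGM2 and SNRK (0.977, 0.976 and 0.976). PRDM16 was closest to LRIG3, FDX1 and SOCS3 (0.978, 0.974 and 0.973). MLLT3 was closest to STAC3, GFOD1 and PPCS (0.980, 0.979 and 0.963). MSI2 was closest to KCNAB2, PGPEP1 and AC130352.1 (0.966, 0.955 and 0.953). None of these genes is one of the 7 factors.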

How the data were processed

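RNA-Seq of 10 libraries was analysed, 2 for each of 5 groups named by the sample labels. The 2 WT hESC samples were not analysed here. The authors made TruSeq libraries, trimmed single-end reads with Trimmomatic, mapped them to hg19 with Bowtie and deposited TPM per Ensembl gene. The submitters' processing notes also list RSEM and mm10, with no role stated. The authors' test, Cuffdiff, was not repeated.

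The deposited TPM were put on the log2(TPM + 1) scale, and 21543 genes that reached 1 TPM in 2 or more libraries entered limma 3.58.1 (R 4.3.3, eBayes with trend, 5 groups sharing 1 variance, Benjamini-Hochberg adjustment over all genes, threshold 0.05). TPM keeps no depth, so precision rests on the spread between the 2 libraries of a group, pooled over the 5 groups. Permutations, lists, motif counts and correlations used Python 3.11.15.

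The 7 factors and all lists were chosen with earlier results of these data known. The text names the 7 factors, GATA2, at most 3 passing genes per direction of a list and comparison, and the 3 genes most like each factor. Some passing genes of the lists are counted but not reported here by name. Alternatives were a pseudocount of 0.1, no filter, a replicate block, quantile normalization, eBayes without trend, only the compared libraries, each library left out and, chosen after seeing the data, TPM rescaled without mitochondrial genes.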

Additional observations from a re-analysis of the deposited data

How the results depend on the processing

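In the comparison of HPCs with HEs averaged over genotypes, all 6 factors kept their direction under all 17 alternatives, and HHEX, MEIS1, MECOM and PRDM16 also kept their call. Within genotypes the counts were less stable. Of the 4 factors called in WT, 2 were called with a pseudocount of 0.1, where 1889 of 21543 genes passed, 1 without the filter (1035 of 56266 genes) and 0 with only the compared libraries, where 0 of all genes passed and 4423 had an unadjusted limma p under 0.05, and 0 to 3 with 1 library left out. Of the 3 called in GATA2-/- cells, 0 were called with only the compared libraries, where again 0 of all genes passed (5040 unadjusted), and 0 to 3 with 1 library left out. Leaving out a library leaves its group with 1, which is then assumed to vary like the other groups. For the pseudocount and the filter the cause was not tested. The count in GATA2-/- HEs against hESCs was 4 and became 6 under quantile normalization, 5 without trend, without mitochondrial genes or without hESC replicate 1, and 3 with only the compared libraries. No factor was called between genotypes under any alternative. Over all genes, the calls between genotypes became 87 in HEs, 29 in HPCs, 33 on average and 30 for the difference between stages without the filter, to 12, 20, 19 and 0 without trend, to 2, 3, 3 and 0 with the replicate block, and to 0 in each with only the compared libraries. In HPCs 6 genes passed with a pseudocount of 0.1. With 1 library left out they were 0 to 1, 0 to 14, 0 to 10 and 0 to 5.

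Values that changed sign were all uncalled. PRDM16 moved to 0.0221 between GATA2-/- HPCs and hESCs under quantile normalization and to 0.111 between genotypes with a pseudocount of 0.1. Rescaled without mitochondrial genes, MEIS1 moved to 0.0305 between genotypes and HHEX to 0.0547 in the difference between the stages' genotype effects, and under quantile normalization MLLT3 moved to -0.104 there. With 1 library left out, MSI2 ranged from -0.0082 to 0.461 between GATA2-/- HPCs and hESCs and from -0.183 to 0.0029 between genotypes in HEs. MECOM ranged from -1.09 to 0.0679 between genotypes in HEs, -0.279 to 0.783 in HPCs and -0.42 to 0.16 on average, HHEX from -0.0678 to 0.424 in HPCs and MEIS1 from -0.0463 to 0.0153 on average. In the difference between stages MLLT3 ranged from -0.175 to 0.187 and HHEX from -0.287 to 0.205.

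The groups share replicate numbers. The correlation of deviations between same-numbered libraries was 0.123 for WT and GATA2-/- HEs, 0.0551 for the HPCs and -0.0141 to 0.0317 for the other pairs of groups, and with 2 replicates the numbers do not show a pairing. With the replicate block, 6 factors were called between HPCs and HEs, 4 in WT, 3 in GATA2-/- cells and 0 between genotypes, where MLLT3 had an adjusted p of 0.216.

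Depth is unknown, so its effect on the low factors HLF and PRDM16 was not tested.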
